A study of Drosophila melanogaster with 4 samples.

Results

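The replication-dependent histone genes of Drosophila melanogaster lie in a tandem array at 39DE on the left arm of chromosome 2 (2L), and 55 of the 4164 peaks that were listed for the protein CG16778 fell into it. The gene of this protein now has the symbol lov. Its product carries a BTB/POZ domain, a fold found in many regulators that bind DNA. The peaks were chosen by position, as those on 2L whose midpoint lay in a 150-kb window of genome release 5 around the array. The window had been proposed because earlier work on the same list had shown a dense group of peaks there, so their number and density describe the choice and were not tested.

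Chromatin was taken from whole embryos of the y; cn bw sp stock, labelled 0 to 8 h and of unknown sex, and precipitated with a rabbit polyclonal antibody against part of CG16778. The labels give 2 ChIP libraries and 2 input DNA libraries, with the same strain, stage and genotype in all 4. The genotype label lists y[1] with oc[R3.2], then Gr22b[1] and Gr22d[1] beside cn[1], CG33964[R4.2], bw[1] and sp[1], and lastly LysC[1] and lab[R4.2] beside MstProx[1], GstD5[1] and Rh6[1]. The collection protocol names an egg laying of 8-16 h, which differs from the stage label. The values used here come from 1 peak list that names no library, so replicates could not be compared and the read depth is unknown.

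Histones package DNA into nucleosomes, and their replication-dependent genes are transcribed in S phase, when new chromatin is assembled. His3 and His4 code for the histones of the nucleosome's inner tetramer, His2A and His2B for those of its flanking dimers, and His1 for the linker histone that binds DNA between nucleosomes. In flies, 1 gene of each kind sits in a repeat unit of about 5 kb. The array is the site of the histone locus body, a nuclear body that holds Mxc, Mute and FLASH, and the CLAMP protein binds GA-rich sequence between His3 and His4. The histone messages end in a stem-loop that is bound by Slbp instead of a poly(A) tail.

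The gene table of release 6 lists 111 coding histone genes of these 5 kinds, all on 2L. There were 23 entries each for His1, His2B and His3, 22 for His4 and 20 for His2A, beside 8 histone pseudogenes. The order was regular. Each of the 23 His1 entries was followed by His2B as the next histone gene, and 20 of the 23 His2B entries by His2A. His2A was followed by His4 in 19 of 20 cases, His4 by His3 in all 22, and His3 by the His1 of the next unit in 22 of 23. The 12 other histone genes and histone locus body genes fixed for lookup, among them mxc, mute, FLASH, Clamp, Slbp and the variant genes His2Av and His3.3A, were all listed. Peaks were not given to single genes, because the list uses release 5 and the table release 6.

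The copies of a unit are nearly the same in sequence, so a short read from one copy can fit many. How the authors placed such reads is not given in the sources used here. A genome also carries more copies of the unit than its assembled sequence holds. The place of a single array peak is therefore less certain than that of a peak in unique sequence, and the part of read placement in the results below was not tested.

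The 55 array peaks made up 7.24% of the 760 peaks on 2L and 1.32% of the whole list. They lay between 21417050 and 21541626, a stretch of 125 kb, or 0.545% of the stretch of 2L between its first and last peak. Their density was 44.1 peaks per 100 kb, against 3.10 per 100 kb in the rest of 2L, a ratio of 14.2. Peaks covered 15.2% of the array stretch (18.9 kb), against 1.47% of the rest of 2L. In a stretch of 125 kb, 24.9 units of 5 kb would fit, which gives 2.21 peaks per unit length.

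The group had clear edges on both sides. The first member lay at 2L:21417050-21417439, was 390 bp wide and scored 12.17. The nearest peak before it, outside the window, lay 71.7 kb away at 21345112 to 21345379, with a width of 268 bp and a score of 10.93. The last member lay at 21541140 to 21541626 (487 bp, score 10.61). The next peak after the window came 77.5 kb later, at 21619175 to 21619375 (201 bp, score 11.14). The window's borders fell in these empty stretches, so moving each border out by 50 kb added no peak.

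No other window of this length on the 5 long arms held as many peaks. Counted in windows of the array's length that start at a peak, the array held 55 peaks, whereas the 3920 windows outside it held at most 31 and a median of 6. The densest of these, on 3R from 21822268, also held the highest score of the list (289.64). On 2L the densest other window held 27 peaks, from 14431070 to 14554600, with a highest score of 68.29. The array was thus the densest stretch of the list, a property for which it had been chosen.

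Within the array, peaks formed 5 runs when gaps of up to 5 kb were joined. In order along the arm these runs held 11, 6, 30, 3 and 5 peaks. Their spans were 23.6, 7.20, 53.5, 5.25 and 4.97 kb. The gaps between them measured 10.5, 5.58, 5.47 and 8.54 kb. Peaks were found along the whole array, with 11, 8, 10, 17 and 9 peaks in consecutive stretches of 25 kb. Median scores in these stretches stayed between 10.31 and 11.46.

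**Figure D1:**
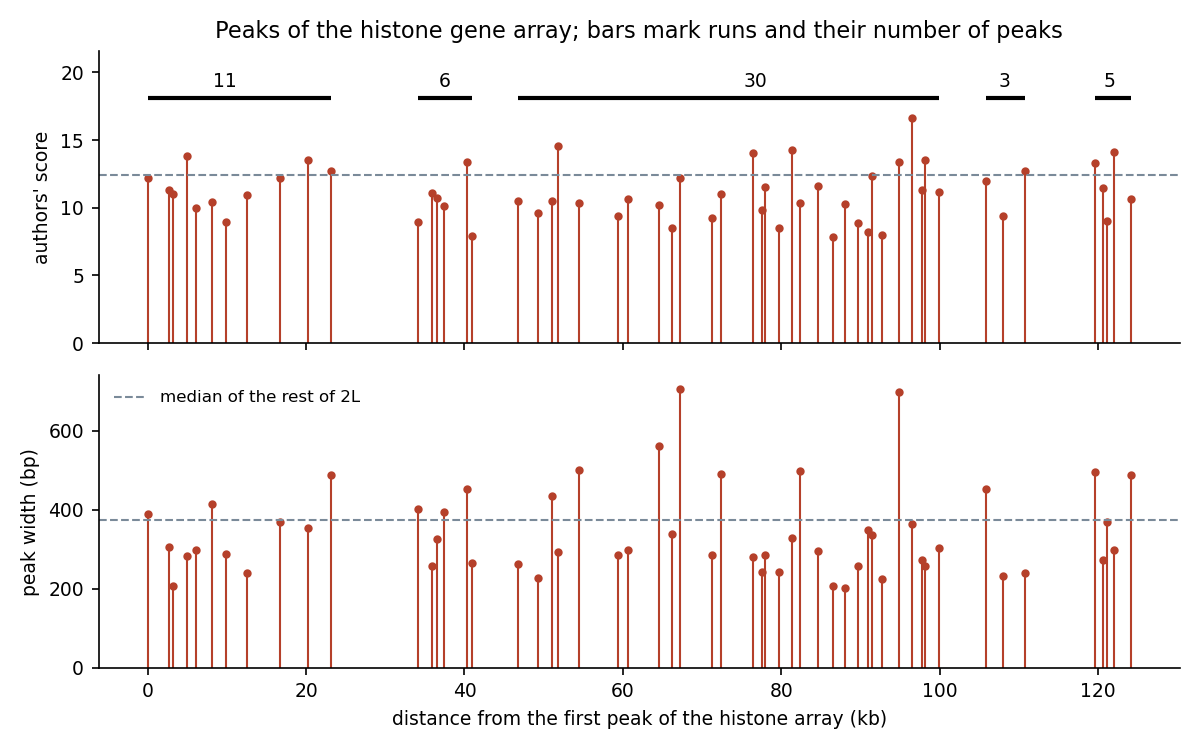
Authors' score (upper panel) and width in bp (lower panel) of each of the 55 array peaks against the distance in kb from the first peak. The dashed lines are the medians of the rest of 2L, and the black bars mark the 5 runs with their number of peaks. Scores stay between 7.84 and 16.61 all along the array, and the 2 widest peaks lie in the run of 30.

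The array peaks were of low and even score. Each peak has 1 score by the authors' caller, read here as a −log10 p-value, which ranks peaks within the list and is not a measure of how much protein is bound. Array scores ran from 7.84 to 16.61, with a median of 10.96 and quartiles of 9.70 and 12.28. Scores in the rest of 2L ran from 6.38 to 220.15, with a median of 12.43 and quartiles of 10.03 and 16.86. The lower quartiles lay close together, and the difference lay in the upper range: 179 of the 705 other peaks of 2L (25.4%) scored above the highest array peak.

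Of the 55 array peaks, 14 (25.5%, exact 95% interval 14.7 to 39.0%) reached the list's median score of 12.33, against 50.9% of the rest of 2L (47.2 to 54.7%). None scored above 20, which allows a share of up to 6.49% (exact upper limit). In the rest of 2L, 17.9% of peaks did so. The intervals cover counting error only and treat peaks as independent, and this difference was not tested because peaks of 1 list are not replicates.

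The highest array peak lay at 2L:21513613-21513976, was 364 bp wide and scored 16.61. It was followed by the peaks at 21468885 to 21469178 (score 14.58) and 21498459 to 21498787 (14.24). The lowest score, 7.84, belonged to a peak of 206 bp at 21503708 to 21503913. The highest and lowest of the array thus lay within 10 kb of each other, in the same run. The whole range was 2.12-fold, and 34 of the 55 scores lay between 9 and 13.

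Array peaks were also narrow. The median width was 299 bp in the array, with quartiles at 265 and 398 bp and a range of 201 to 705 bp. In the rest of 2L it was 374 bp, with quartiles at 264 and 546 bp. The widest lay at 21484121 to 21484825 (705 bp, score 12.18) and the next at 21511813 to 21512510 (698 bp, score 13.36). The narrowest, 201 bp, lay at 21505182 to 21505382 and scored 10.25. None was wider than 1000 bp, against 6.67% in the rest of 2L. In the rest of 2L, 108 peaks (15.3%) were wider than the widest array peak. The Spearman correlation of score with width was 0.26 across the 55 array peaks, against 0.65 across the 705 others. Both measures come from the same pileup, and the narrower range of both in the array bears on the size of such a correlation.

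**Figure D2:**
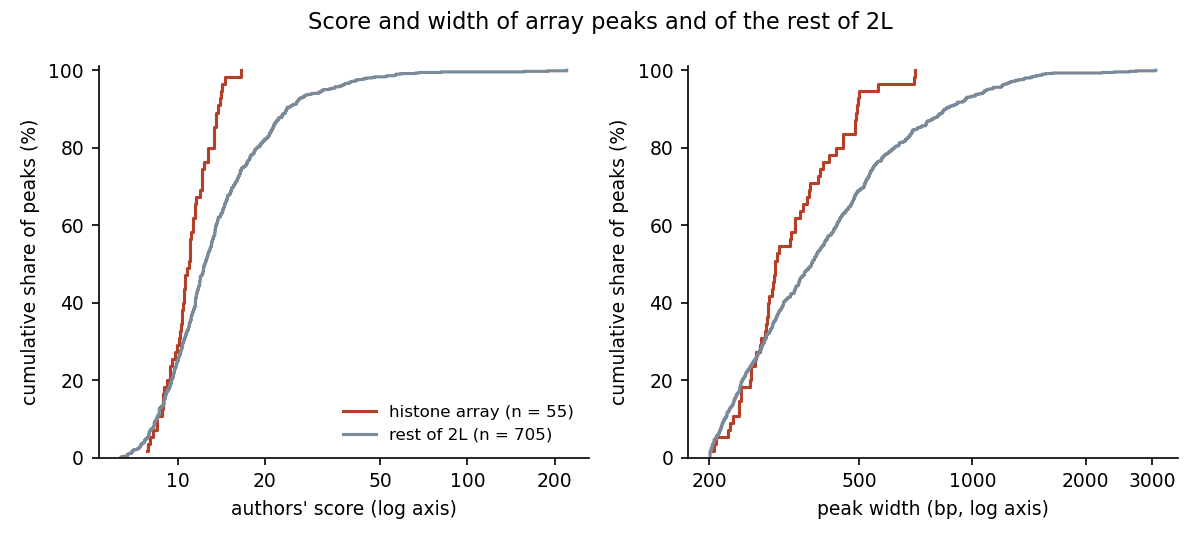
Cumulative share of peaks in percent against score (left) and width in bp (right), both on log axes, for the 55 array peaks and the 705 other peaks of 2L. The curves run together at low values and part above the lower quartile, since the array ends at a score of 16.61 and a width of 705 bp.

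Other dense groups of the list were set beside the array. Across the genome, 14 other runs of 10 or more peaks were found under the same joining rule, with 188 peaks in all. The highest score was 16.61 in the array's run of 30 and 13.80 in its run of 11, against 15.77 to 289.64 in the other runs, of which 3 stayed at or under 16.61 and 9 held a score above 20. The list's median score was reached by the 25.5% of array peaks given above, against 52.7% of the 188 peaks in the other runs (45.3 to 60.0%). The median score was 10.52 in the run of 30 and 11.29 in the run of 11, against 11.26 to 14.04 in the others, so that 0 of the 14 had a median at or under that of the run of 30. The median width was 295 bp in the run of 30 and 307 bp in the run of 11, inside the range of 271 to 429.5 bp of the other runs. The closest in size, the 3R run of 31 peaks, had a median score of 12.73 and peaks of 382 bp at the median.

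The scores carry a trace of the background they were set against. A MACS caller compares the pileup at a peak with the larger of a genome-wide and a local background. Peaks set against the genome-wide value share scores that lie on a ladder of steps, 1 per whole pileup, and the ladder refitted on the whole list had a background of 35.4 fragments. Over the whole list, 945 of 4164 peaks (22.7%) lay on the steps of this ladder. In the array, 2 of 55 peaks lay on its steps (3.64%, exact interval 0.443 to 12.5%), against 16.0% in the rest of 2L (13.4 to 18.9%) and 11.7% in the 14 other runs (7.48 to 17.2%). Of these runs, 7 had no peak on a step, so a low share is not particular to the array. On a ladder moved midway between the steps, which should match no more than by accident, 3 array peaks (5.45%) and 3.40% of the rest of 2L were found. The steps thus held no more array peaks than the places between them. The 55 peaks had 50 different scores, and no score was held by more than 2 of them. The local background of each peak is not in the list, and what it contributed to the scores was not tested.

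Whether the peaks follow the repeat unit was first examined with a unit of 5 kb. Neighbouring peak centres in the array were 332.5 to 10921 bp apart, with a median of 1776 bp, against 6990 bp in the rest of 2L. Of the 54 neighbouring distances, 49 were shorter than 5 kb and 1 lay within 250 bp of 5 kb, so most units held more than 1 peak. Over the whole array, 152 of 1435 pairs at least 2500 bp apart lay within 250 bp of a whole multiple of 5 kb. That share of 10.6% is close to the 10.0% that windows of this width cover. The mean vector of positions within a 5-kb unit, which is 1 when all peaks take the same place and near 0 when they are spread, was 0.165. Of the 14 other runs, 7 had a value as high or higher (0.0437 to 0.485). When peaks were classed by place in a 5-kb unit over the whole array, the 5 classes of 1 kb held 10, 14, 11, 6 and 14 peaks. Their median scores lay between 10.26 and 11.72. These measures showed no common place in a unit of exactly 5 kb across the 125 kb. A unit of slightly different length would shift the places along the array, so they could miss a place shared at such a length.

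At short range the repeat was visible, chiefly in the run of 30 peaks. In the array, 23 pairs of peaks lay within 250 bp of 5 kb and 20 within 250 bp of 10 kb. At 19 other distances between 2.5 and 12.5 kb, in steps of 0.5 kb, the counts were 5 to 14 with a median of 10.0. Of the array's 23 and 20 pairs, 18 near 5 kb and 13 near 10 kb lay within the run of 30 peaks. That run had 2 to 10 pairs at the other distances (median 6.0). In the 3R run of 31 peaks there were 10 pairs near 5 kb and 7 near 10 kb, against 6 to 13 at the others (median 9.0). These counts were made after the distances had been seen, and pairs share peaks, so no test is given.

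**Figure D3:**
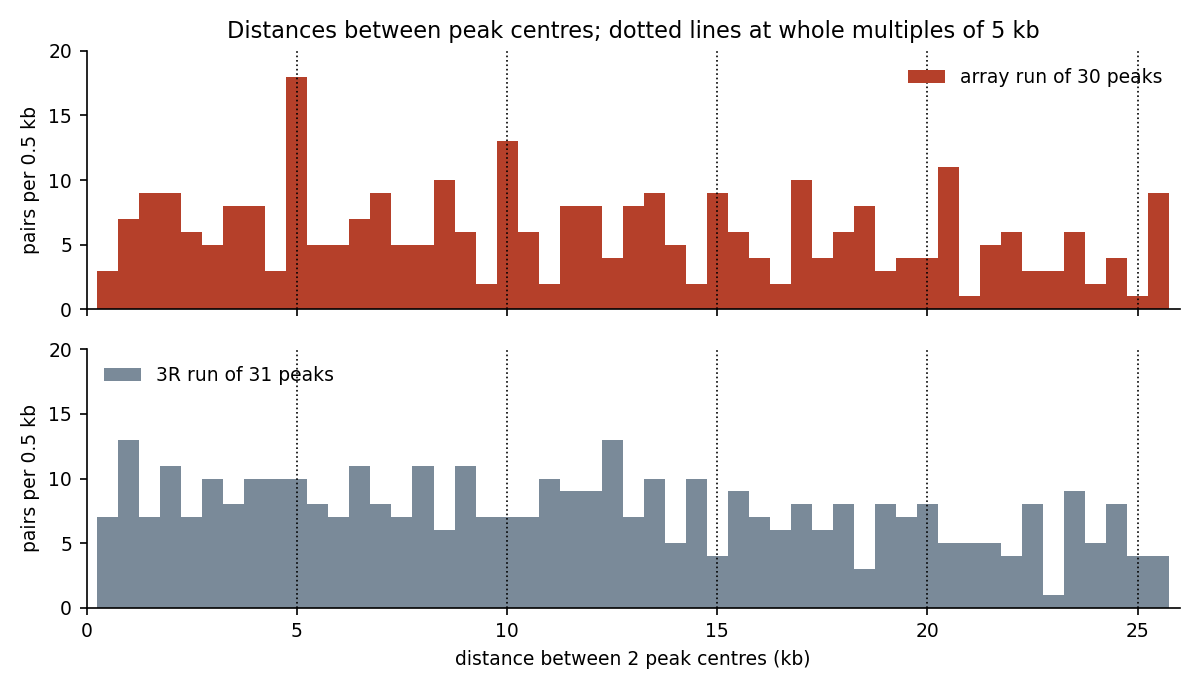
Number of pairs of peaks per 0.5 kb against the distance between their centres in kb, for the array's run of 30 peaks (upper panel) and the 3R run of 31 peaks (lower panel). Dotted lines mark whole multiples of 5 kb. The run of 30 has its tallest bars at 5 kb (18 pairs) and 10 kb (13 pairs), whereas the 3R run has 10 and 7 pairs there.

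The mean vector sees only 1 place per unit and misses places that lie evenly around it. A measure that adds its first 3 harmonics, and so also sees several places per unit, was therefore added after the data had been seen. Over periods of 3 to 7 kb it was largest in the run of 30 at 5070 bp, with a value of 0.639. In a search from 1 to 10 kb, the mean vector of this run was largest at 1685 bp (0.525), whereas at 5 kb it was 0.180. A length of 1690 bp is 1 of the 3 harmonics added at 5070 bp, so a spacing near this length makes up much of the 0.639. At the same 5070 bp, which had been picked on the run of 30, the separate run of 11 array peaks had a 3-harmonic value of 0.685. At this period the 14 other runs of the list had 0.171 to 0.546 (median 0.44), and the 3R run of 31 had 0.190. Each at its own best period, the 14 other runs had 0.409 to 0.777, and 6 of them reached or passed the 0.639 of the run of 30. The 3R run of 31, the only other run of similar size, had 0.409 at its best. The run of 11 had its own best period at 3355 bp (0.720), and its 3 pairs near 5 kb and 2 near 10 kb lay within the 0 to 4 at other distances, so this run by itself did not show the 5-kb repeat. Small runs give higher values by construction, since 10 peaks scatter less evenly than 30. Over all 55 array peaks the 3-harmonic measure was largest at 3395 bp (0.424), not near 5 kb. At 5070 bp it was 0.337, under that of either run, and whether the runs share 1 register was not tested. The best period of the single-place measure over the array was 3380 bp, with a value of 0.240, which 12 of the 14 other runs reached or passed at their own best period. That measure by itself thus gave no unit for the array, and 3380 bp is not a whole fraction of the 5070 bp picked on the run of 30.

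Folded at 5070 bp, the 30 peaks took 3 places in the unit. Places were separated where more than 500 bp of the unit held no peak centre, and they are called A, B and C in their order along the arm, counted from the centre of the run's first peak. Position A held 11 peaks between −99 and 671 bp from this origin. Position B held 9 peaks between 2296 and 2576 bp, a spread of 280.5 bp. Position C held 10 peaks between 3544 and 4267 bp, of which 8 lay within 162.5 bp. The 3 places together took 35.0% of the unit, and the widest stretch without a centre measured 1624.5 bp. In the 3R run of 31 peaks, folded at its own best period of 3175 bp, centres took 78.3% of the period, and the widest empty stretch measured 690 bp. Since the unit was chosen to sharpen the places, these shares are a description.

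Each place recurred in most units of the run. The run spanned 11 units, and positions A, B and C had a peak in 9 of them each. In 5 of the 11 units all 3 places had a peak. At position B, 7 pairs of neighbouring units had a single peak each, and these lay 4942 to 5246 bp apart with a median of 5080.5 bp (SD 112 bp). At position C, 5 such distances ran from 4946 to 5543 bp (median 5153.5 bp). At position A, 4 such distances ran from 4690 to 5683 bp (median 5075 bp). The places were set by folding at 5070 bp, so these distances lie near 5070 bp by construction. Their spread is limited by the spread of each place, and they are a description. The medians of A and B were 2190 bp apart, those of B and C 1691 bp, and those of C and the next A 1189 bp.

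Unit 7 shows the full pattern. Its A peaks lay at 21494649 to 21494891 (score 9.80) and 21495009 to 21495294 (11.51). Its B peak lay at 21496855 to 21497097 (8.52) and its C peak at 21498459 to 21498787 (14.24). Unit 6 had an A peak at 21489407 to 21489896 (11.03) and a C peak at 21493537 to 21493817 (14.05), and no B peak was listed there. A missing peak means only that none passed the authors' threshold.

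The 3 places had peaks of like score and width. Scores ran from 8.02 to 14.58 at A (median 11.03), from 8.52 to 13.36 at B (10.17) and from 7.84 to 16.61 at C (10.57). The highest and the lowest peak of the array both belonged to position C. Widths ran from 201 to 705 bp at A (median 273 bp), from 227 to 698 bp at B (296 bp) and from 206 to 435 bp at C (333 bp). Peaks at position C thus spanned the whole score range of the array, and those at A and B a narrower one. With 1 list and no values per library, the error of a single score is unknown. Which histone gene or intergenic stretch lies at A, B or C was not analysed here.

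**Figure D4:**
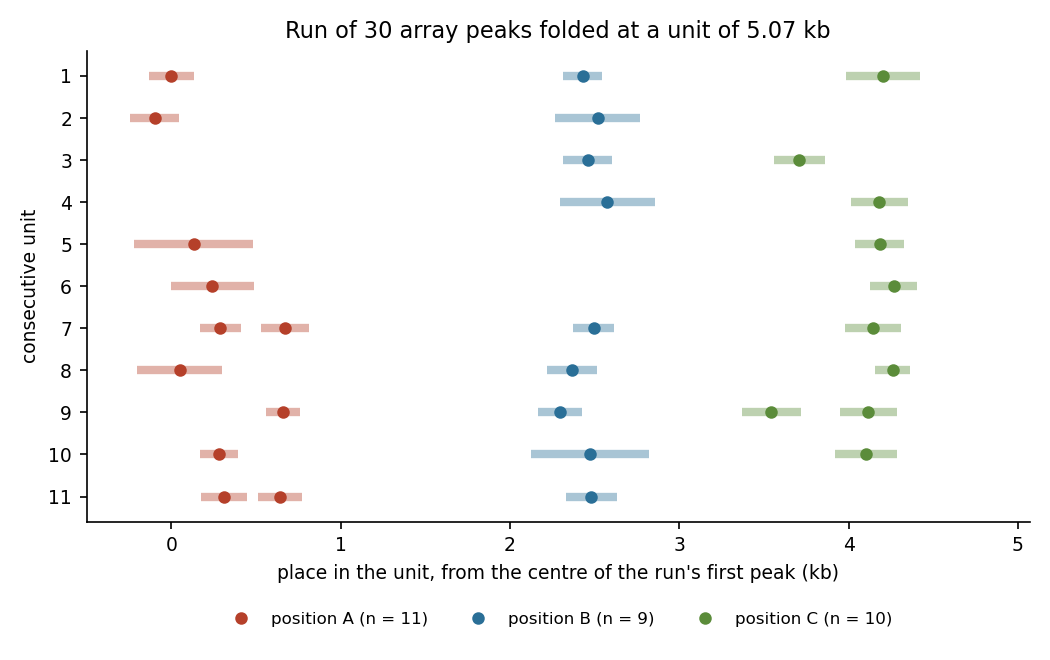
The 30 peaks of the largest array run, each drawn at its place within a unit of 5.07 kb (horizontal axis, kb from the centre of the run's first peak) and in its consecutive unit (vertical axis, 1 to 11). Points are peak centres, pale bars are peak widths and colours mark positions A (11 peaks), B (9) and C (10). The peaks stand in 3 columns, with no centre between 671 and 2296 bp.

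The run of 11 peaks, folded at the same 5070 bp, had a group of 4 centres within 214.5 bp and a group of 5 within 837 bp, with the other 2 alone. Counted from the origin used for A, B and C, the group of 4 fell inside the full range of position C, and 1 of the 2 lone centres inside A. The group of 4 lay outside the stretch of 4104 to 4266.5 bp that held 8 of the 10 peaks at C. The group of 5 and the other lone centre fell at none of these places. An error in the unit length would shift the places between the runs, which was not tested. Whether units of other lengths or missing sequence lie between the runs was not tested.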

How the data were processed

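The series holds ChIP-seq of 2 ChIP and 2 input libraries and 1 deposited list of 4164 peaks, used as deposited. Per the file headers, positions are those of FlyBase release 5 and MACS named the peaks. Per the submitters' processing notes, the build was BDGP5 and the tools were MACS2, BWA and CASAVA (1.7.0.2 and 1.7.0.3). What was done with reads of several alignments, and which thresholds and pooling were used, is not given in the sources used here. The deposited score was read as −log10 p of the authors' caller, from the values alone.

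Peak centres are midpoints. Values were computed with scipy 1.17.1, pandas 2.3.3 and numpy 2.4.6 under Python 3.11.15, and plotted with matplotlib 3.10.9. Runs join peaks at gaps of up to 5 kb. Periods were searched from 3 to 7 kb in steps of 5 bp. The score ladder, −log10 of the Poisson tail at whole pileups, was fitted between 5 and 80 with a tolerance of 0.0075. Shares carry exact Clopper-Pearson 95% intervals. The period search and the ladder fit were tested on simulated data. The simulated positions had fewer places per unit than the 3 described above and shared a common register, so that pattern was not simulated. The members, lists and measures were chosen with earlier results of these data known, and the 3-harmonic measure and the folding after seeing the distances. Members named were the highest, lowest, widest and narrowest, the edges, the nearest peaks outside and those that recur. No sequence is printed, since no sequence of release 5 was used here. Alternatives covered the window, score minimum, merging, peak edge, unit and comparison set.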

Additional observations from a re-analysis of the deposited data

How the results depend on the processing

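Alternatives were run in 51 cases, of which 37 kept their value within 1 SD over peaks, the exact interval, 250 bp (periods) or a factor of 1.5 (counts and vectors). The differences in median width and score from other peaks stayed negative throughout, and the other measures cannot be negative. Taking only peaks at or above the list's median score left 14 peaks by construction, with a median score of 13.53, a width difference from the rest of 2L of −192 bp (−75 bp in all peaks), a spacing ratio of 1.25 and a best period of 3100 bp. The spacing ratio, the share of pairs near multiples of the unit over that of the windows, was 1.06 over all pairs. It was 1.63 in the run of 11 peaks, 1.51 for distances up to 25 kb and 1.70 for these distances with the unit of 5070 bp. With a unit of 4.8 kb it was 0.942, which is under 1 and counted as kept. The best period of 3380 bp became 6395 bp in the run of 30, 1700 bp in a search from 1 to 10 kb and 5070 bp in the run of 30 with 3 harmonics. Of these periods, 1700 bp times 3 is 5100 bp, whereas neither 3380 bp nor 6395 bp is a whole fraction of 5070 bp. The mean vector of 0.165 became 0.440 in the middle and 0.0718 in the widest of 3 width classes, and 0.639 in the run of 30 with 3 harmonics at 5070 bp. The cause of these shifts was not tested. The score difference from the rest of 2L was −1.47 and became −0.74 among peaks of the array's width range. Merging at gaps of up to 500 bp left 45 peaks.

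No paired analysis was possible because the peak table used here names no library, and no leave-one-out of a replicate was made. Depth is unknown, sites under the threshold are not listed, and reads that match several copies of the unit limit the place of each array peak.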
